A study of Mus musculus with 23 samples.

Results

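The genes described here make, sense, move and store cholesterol: 29 genes of the mevalonate and sterol pathways, their regulators and their transporters, chosen by gene name out of the 54354 genes in the deposited table, with all 29 names found. They were read in 11 GFP-positive and 12 GFP-negative bulk RNA libraries. The cells came from AKP-tdT organoids, cultured tumour epithelium with a tdT mark, which carried a Basp1-eGFP-DTR reporter (a green fluorescent protein and a receptor for diphtheria toxin, tied to Basp1) and were placed orthotopically in the mouse colon. Primary tumours were then digested and the cells sorted by GFP. All libraries of both groups share the Basp1-GFP genotype, the AKP background and the colon as tissue. The labels give no age, sex, diet or time, do not spell out the AKP alleles, and do not say which libraries shared an animal, so the p-values reflect only how far libraries of a group lay apart, a spread that may be technical. The series title places the comparison in work on ceramides, metastasis and a revival stem cell programme of colorectal cancer.

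Cells build cholesterol from acetyl-CoA. The mevalonate pathway makes isoprenoid units, the prenyl diphosphate synthases join them, squalene is closed to the sterol lanosterol, and a series of demethylases, reductases and isomerases turns lanosterol into cholesterol. When sterols are scarce in the endoplasmic reticulum, the escort protein Scap carries the membrane-bound factors SREBP1 and SREBP2 to the Golgi, where they are cut and freed to switch the synthesis genes on. When sterols are plentiful, the Insig proteins hold Scap back, and the LXR receptors raise efflux genes such as Abca1. In the gut lining this synthesis supplies membranes of dividing cells and the isoprenoid anchors of signalling proteins.

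Depth was low and uneven. Total counts per library had a lowest value, median and highest value of 37125, 1418140 and 4238877 in GFP-positive libraries, and of 25458, 144334.5 and 2304316 in GFP-negative libraries. The 29 genes together took 61 to 10319 counts in a GFP-positive library and 73 to 5862 counts in a GFP-negative one. The numbers in the library names formed 2 runs, here library set 1 (5 GFP-positive and 6 GFP-negative libraries) and library set 2 (6 and 6), and each comparison was repeated within them. Basp1 itself, the gene that carries the reporter, had 13.3, 51.3 and 108 CPM (counts scaled to equal library totals) as lowest, median and highest value in GFP-positive libraries, against 0, 27.7 and 83.8 CPM in GFP-negative libraries. Those ranges overlapped, and the log2 fold change of 0.63 (SE 0.38, edgeR adjusted p = 0.997) did not pass the test. Epithelial markers summed to between 3607 and 10212 CPM in GFP-positive libraries and between 2900 and 7804 CPM in GFP-negative ones, so epithelial transcripts were present throughout both groups. Mitochondrial ribosomal RNA took 9.07% of the counts in GFP-positive 4, 32.1% in GFP-negative 4, 11.97% in GFP-negative 5 and 1.76% to 4.99% in the other libraries. GFP-positive 3 stood apart, with 32172 CPM of 12 macrophage markers. The other GFP-positive libraries had at most 1131 CPM of them, and GFP-negative libraries had 424, 2679 and 6974 CPM as lowest, median and highest sum.

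Merged exons join all annotated exons of a gene (4.21 kb for Fdps, 10.8 kb for Lss), so levels per kilobase of them are only roughly comparable between genes. On this scale the highest median level over the 23 libraries was that of Fdps (73.9 CPM per kb), followed by Npc2 (72.2 CPM per kb), Ebp (39.4 CPM per kb) and Msmo1 (34.1 CPM per kb). The synthesis genes Fdft1, Pmvk, Cyp51, Hmgcs1, Idi1 and Acat2 came next, between 25.6 CPM per kb for Fdft1 and 17.3 CPM per kb for Acat2. At the low end were the transporters Npc1 (2.02 CPM per kb) and Abca1 (1.46 CPM per kb), and Lss (0.865 CPM per kb), the cyclase that closes the sterol ring. Neighbours in this order were not separable, since the library ranges of Fdps and Npc2, for instance, overlapped. Npc2 supplied 18.7% of all counts of the 29 genes, Fdps 12.5% and Msmo1 9.68%.

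**Figure D1:**
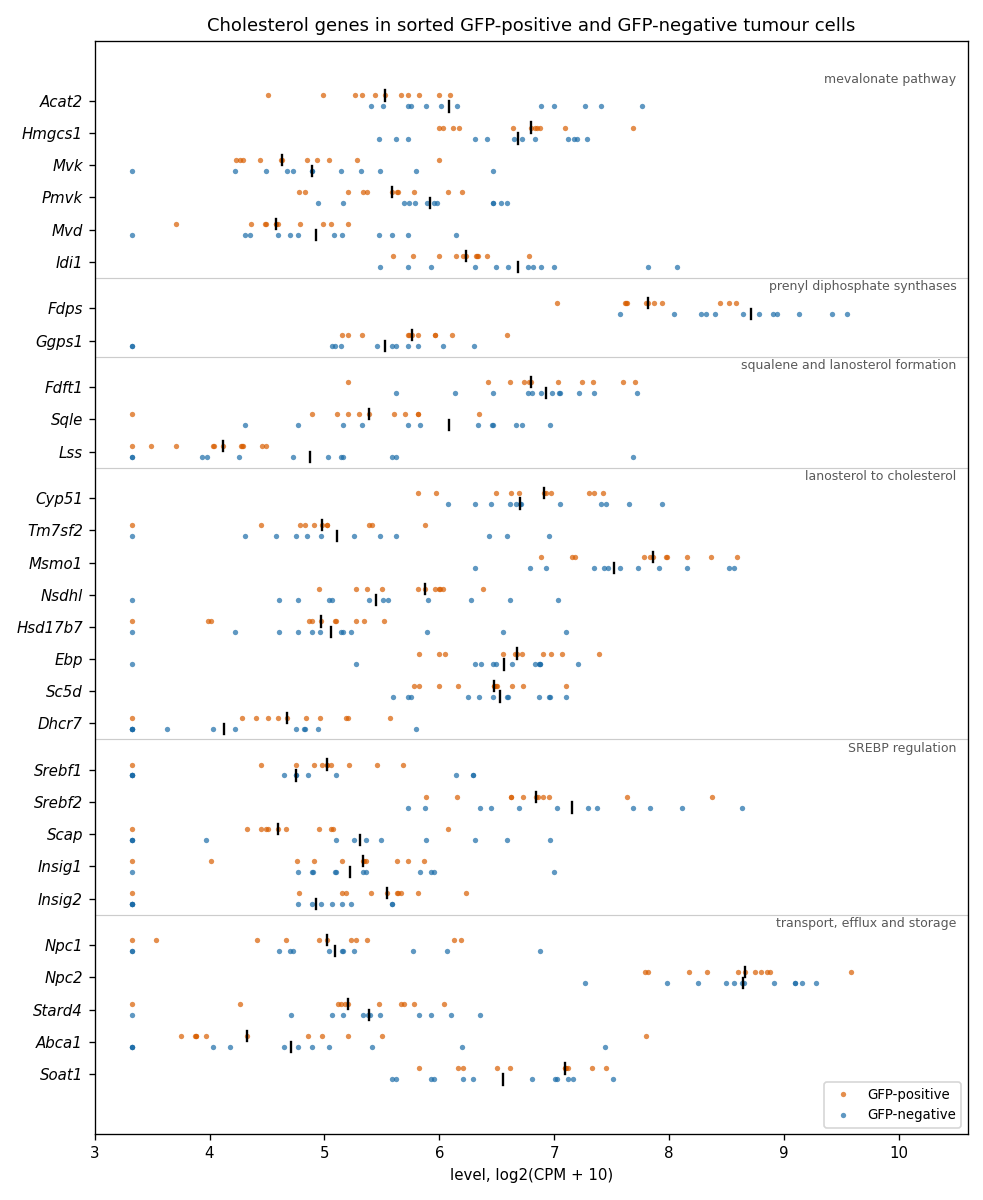
Level of each cholesterol gene in every library, as log2(CPM + 10) on the horizontal axis, with GFP-positive libraries (11, upper row of each gene) above GFP-negative libraries (12, lower row), vertical bars at the group medians and genes ordered by pathway step. The point ranges of both populations overlap for all 29 genes, and Fdps has the widest gap between medians, at 216 CPM in GFP-positive and 411 CPM in GFP-negative libraries.

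No cholesterol gene passed the threshold of an adjusted p of 0.05 between GFP-positive and GFP-negative libraries in edgeR's quasi-likelihood test. Of all 6621 genes tested 0.0151% passed it, the single gene being Fbln1, a matrix gene that is not a member and is named here after its value was seen. The count of 0 among 28 tested members was thus near the background. 28 of the 29 members had enough counts to be tested in edgeR, Lss being the exception. At an unadjusted p under 0.05, Acat2 and Fdps were lower and no member was higher, against 4.95% of all tested genes in either direction, 2.22% in the lower and 2.73% in the higher one. DESeq2 called 1 member, Fdps, against 0.612% of the 9961 genes it tested. No member had CPM ranges that were apart between the populations over all libraries, and neither had any of the tested genes (0%). Over all libraries 18 of the 28 tested members had a lower and 10 a higher fold change, with a median log2 fold change of −0.08. The same median over all tested genes was 0.07, and 41.5% of them were lower. By step, 5 of 6 mevalonate genes were lower with a median of −0.45, the 8 genes between lanosterol and cholesterol were 4 lower and 4 higher with a median of 0.03, 4 of 5 SREBP regulators were lower with a median of −0.16, and 3 of 5 transport and storage genes were lower with a median of −0.02. All 6 tested fibroblast markers were lower too, with a median of −2.23, 6 of them at an unadjusted p under 0.05 and 0 called, as were both tested smooth muscle markers, with a median of −1.55. The 2 tested endothelial markers were lower as well (median −0.50). Of 9 tested macrophage markers 6 were higher and 3 lower (median 0.05). Of 10 epithelial markers 8 were higher and 2 lower (median 0.25), and the 1 tested lymphocyte marker was higher (0.69). The part of these cells in the members' values was not tested.

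**Figure D2:**
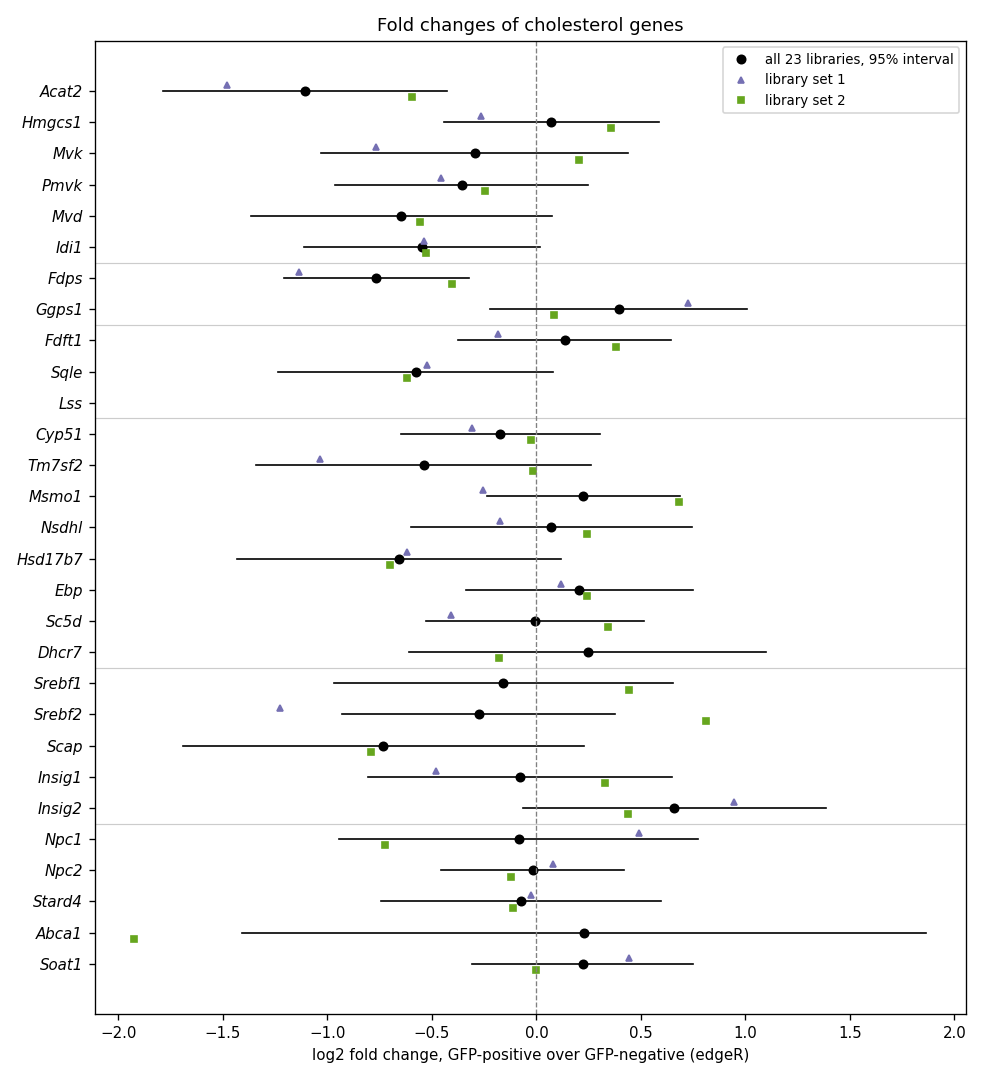
Log2 fold change, GFP-positive over GFP-negative, for each cholesterol gene by pathway step: black points with 95% intervals from the edgeR fit over all 23 libraries, triangles for library set 1, squares for library set 2. The intervals of Acat2 and Fdps lie wholly below 0, Lss was not tested in edgeR, and Srebf2 has the widest gap between the library sets. Mvd, Dhcr7, Srebf1, Scap and Abca1 have no triangle because they had too few counts in set 1 to be tested.

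The mevalonate pathway opens with Acat2, the cytosolic thiolase that joins acetyl-CoA units (not the sterol acyltransferase that shares its name in older usage). Its level had a lowest value, median and highest value of 12.8, 36.0 and 58.1 CPM in GFP-positive libraries, against 32.5, 57.9 and 208 CPM in GFP-negative libraries. The groups overlapped, since the lower GFP-negative libraries lay within the GFP-positive range, and the 6 highest levels were all GFP-negative. The 208 CPM came from GFP-negative 4, the library with 32.1% mitochondrial ribosomal RNA, whose part in the level was not tested. Acat2 had a log2 fold change of −1.11 with an SE of 0.34 and a 95% interval of −1.79 to −0.43. Its p was 0.00211 before and 0.730 after adjustment over all genes in edgeR. Acat2 lies on chromosome 17 of mm10 at 12942890 to 12960747 on the minus strand (ENSMUSG00000023832), and its near copy Acat3 held 5 counts in 3 libraries. In bulk libraries such as these, fewer cells of a type that expresses a gene and less RNA of it per cell cannot be told apart.

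Within library set 1, Acat2 stood at 28.5, 30.0, 36.0, 53.9 and 58.1 CPM in the GFP-positive libraries, against a lowest value of 54.7, a median of 113 and a highest value of 208 CPM in the GFP-negative ones. Only GFP-positive 3, at 58.1 CPM, was above the lowest GFP-negative library there. The log2 fold change was −1.48 (SE 0.47, edgeR adjusted p = 0.803) in set 1 and −0.60 (SE 0.45, edgeR adjusted p = 0.898) in set 2, where it was −0.24 without GFP-negative 12 (144 CPM, 10 counts). The difference between the sets was 0.86 (SE 0.64, edgeR adjusted p = 0.858). Where a library-name identifier was shared by both populations, the GFP-positive level was the lower one in 7 of 10 identifiers, with a mean difference of −0.76 ± 0.79 (SD, n = 10) on the log2(CPM + 10) scale.

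Acat2 also varied with depth. Across the 23 libraries its log2(CPM + 10) had Pearson's r = −0.658 with the log10 total count (permutation p = 0.00054, adjusted p = 0.00783 over the 29 members) and Spearman's rho = −0.589 (permutation p = 0.00371, adjusted p = 0.108). Without the 2 libraries farthest from the median depth r was −0.671. It was −0.721 within library set 1 (n = 11) and −0.590 within library set 2 (n = 12), and it was −0.238 among GFP-positive (n = 11) and −0.693 among GFP-negative libraries (n = 12). The 8 GFP-negative libraries with fewer than 500000 counts had 43.0, 113 and 208 CPM as lowest, median and highest level. The 4 deeper GFP-negative libraries had 32.5, 35.6, 43.9 and 54.7 CPM, and the 9 GFP-positive libraries of that depth had 12.8, 33.5 and 58.1 CPM as lowest, median and highest level. Those deeper libraries overlapped, and their log2 fold change was −0.29 with an unadjusted p of 0.407 in edgeR. Set 1 gave 4 of the GFP-positive and 1 of the GFP-negative ones, and set 2 gave 5 and 3. The limit thus changed the mix of sets too, and the parts of depth and set were not told apart.

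**Figure D3:**
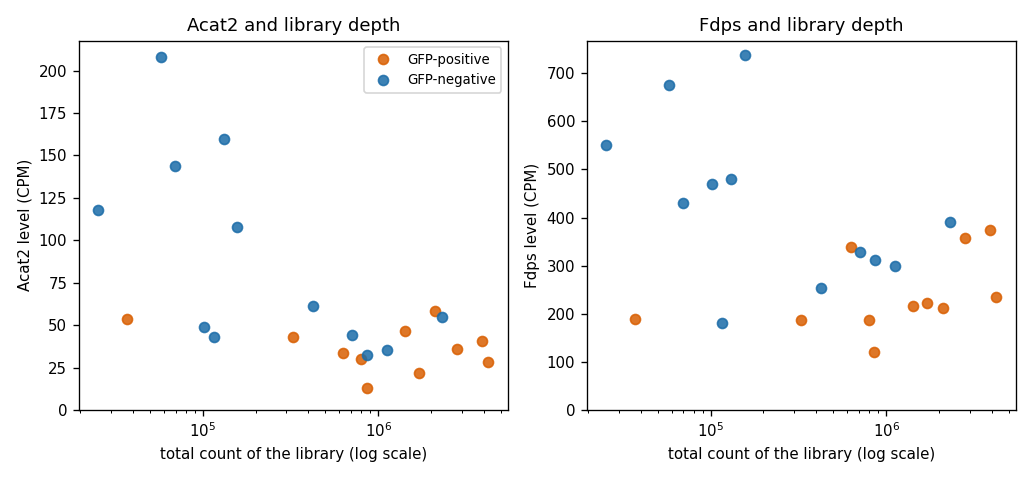
Levels of Acat2 and Fdps as CPM (vertical axes) against the library's total count (horizontal log axis) in GFP-positive and GFP-negative libraries. The highest Acat2 level, 208 CPM, is in a GFP-negative library of 57728 counts, and at 500000 counts or more both populations share the range from 32.5 to 54.7 CPM of Acat2.

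Hmgcs1, the synthase that makes HMG-CoA, did not pass the test and had nearly equal centres. It had 53.9, 101 and 196 CPM as lowest, median and highest level in GFP-positive libraries and 34.4, 92.9 and 146 CPM in GFP-negative libraries, with a log2 fold change of 0.07 (SE 0.25, edgeR adjusted p = 0.997). Of the kinases and the decarboxylase that follow, Mvk had medians of 14.8 CPM in GFP-positive and 19.7 CPM in GFP-negative libraries, Pmvk 38.2 and 50.7 CPM, and Mvd 13.9 and 20.6 CPM in the same order of groups. Their log2 fold changes were −0.30 (SE 0.36), −0.36 (SE 0.30) and −0.65 (SE 0.36), and none passed the test.

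Idi1, the isomerase that prepares the isoprenoid unit for joining, had 38.5, 65.1 and 99.9 CPM as lowest, median and highest level in GFP-positive libraries, against 34.8, 92.8 and 259 CPM in GFP-negative libraries. In library set 1 it had 53.9, 60.9, 65.1, 70.6 and 75.6 CPM in the GFP-positive libraries, against 80.0, 86.6, 99.0, 102, 108 and 118 CPM in the GFP-negative ones. These ranges did not touch, as for 0.571% of the genes tested in that set (1.11% in set 2, where no member did), and Idi1 was the single member of the 29 for which this held. The values at 53.9 and 118 CPM rest on 2 and 3 counts. The edgeR fold change in set 1 was −0.54 (adjusted p = 0.933). In set 2 the ranges overlapped, with 38.5, 66.8 and 99.9 CPM as lowest, median and highest GFP-positive level and 34.8, 60.2 and 259 CPM for GFP-negative libraries, whose top 2 values of 216 and 259 CPM came from GFP-negative 11 and GFP-negative 12. The set 2 fold change was −0.53, and it was −0.20 without the first and −0.13 without the second of these libraries. Over all libraries the Idi1 fold change was −0.55 on the log2 scale (SE 0.28), and its edgeR p was 0.0575 before and 0.996 after adjustment.

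Idi1 and Hmgcs1, both textbook SREBP2 targets, varied together among the 19 libraries with at least 100000 counts: Pearson's r was 0.605 (permutation p = 0.00702, adjusted p = 0.0257 over a family of 11 relations) and Spearman's rho 0.665 (adjusted p = 0.0145). Without the 2 libraries farthest from the median of Hmgcs1 r was 0.563. It was 0.464 among GFP-positive (n = 10) and 0.719 among GFP-negative libraries (n = 9), and it was 0.321 in library set 1 (n = 8) and 0.614 in library set 2 (n = 11). With the 4 shallower libraries included r was 0.133 (adjusted p = 0.663), so the relation was seen only where the shallow libraries were left out. The permutations ran across groups and sets, and how often other gene pairs reach such an r was not counted. The other relation with Hmgcs1 in the family, that of Sqle, did not pass, with r = 0.225 (permutation adjusted p = 0.49) and r = −0.098 in set 2. Insig1, another SREBP target, gave no relation past an adjusted p of 0.05 with Hmgcs1 (r = 0.394), Idi1 (r = 0.02), Sqle (r = 0.423), Fdps (r = 0.255) or Srebf2 (r = 0.169).

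The bases just before the RefSeq starts of Hmgcs1, Idi1, Acat2 and Srebf2 are printed 5′ to 3′ on the gene's strand. They are from GRCm38.p6, the assembly behind mm10. Hmgcs1 and Idi1 varied together only where the shallow libraries were left out, and the comparisons of Acat2 and Srebf2 are described at length here. Capitals mark the sterol response element consensus TCACNCCAC and the CCAAT box, which reads ATTGG on the other strand. The windows are chr13:119690101-119690350 (plus strand) for Hmgcs1, chr13:8885356-8885605 (plus strand) for Idi1, chr17:12960726-12960975 (minus strand) for Acat2 and chr15:82147019-82147268 (plus strand) for Srebf2. GENCODE starts Idi1 at 8885501, Srebf2 at 82147181 and Acat2 at 12960747, inside these windows.
Hmgcs1: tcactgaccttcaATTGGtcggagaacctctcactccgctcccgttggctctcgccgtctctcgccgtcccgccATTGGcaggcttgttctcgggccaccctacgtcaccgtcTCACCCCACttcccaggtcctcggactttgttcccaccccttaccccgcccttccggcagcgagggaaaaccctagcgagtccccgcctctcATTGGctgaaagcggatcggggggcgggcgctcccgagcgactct
Idi1: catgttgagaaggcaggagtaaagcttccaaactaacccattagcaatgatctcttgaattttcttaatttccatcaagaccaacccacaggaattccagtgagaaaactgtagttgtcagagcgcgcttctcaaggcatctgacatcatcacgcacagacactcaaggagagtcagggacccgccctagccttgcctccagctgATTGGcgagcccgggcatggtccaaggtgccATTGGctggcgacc
Acat2: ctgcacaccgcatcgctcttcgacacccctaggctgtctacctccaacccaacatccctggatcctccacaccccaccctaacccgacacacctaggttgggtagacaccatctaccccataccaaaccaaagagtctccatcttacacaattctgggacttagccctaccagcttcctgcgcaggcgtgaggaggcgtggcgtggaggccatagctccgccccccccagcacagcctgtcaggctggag
Srebf2: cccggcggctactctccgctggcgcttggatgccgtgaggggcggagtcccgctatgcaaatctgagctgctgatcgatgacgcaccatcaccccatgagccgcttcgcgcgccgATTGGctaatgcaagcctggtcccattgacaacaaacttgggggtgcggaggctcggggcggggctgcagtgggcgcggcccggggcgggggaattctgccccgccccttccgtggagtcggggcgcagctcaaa
The marked element of Hmgcs1 starts at position −137 relative to the RefSeq start. Motifs were searched on both strands from 250 bases before to 50 bases after each start, each motif on its own, so that matches may overlap. Of the 29 genes 24 had at least 1 such window (Fdps, Fdft1, Sqle, Npc1 and Stard4 had none). The sterol response element letters were found in a window of 1 of these 24 genes, Hmgcs1, and of 1.44% of 27025 mouse genes, each counted once if any of its windows had a match. CCAAT was found in at least 1 window of 21 of the 24 genes (87.5%, against 41.1% of all genes counted in the same way), with Acat2, Scap and Abca1 as the 3 without it. The GC box GGGCGG was found for 22 of the 24 genes (91.7%, against 38.2% of all genes), with Pmvk and Ggps1 as the 2 without it. The 27025 genes were taken whether or not they were expressed here, and a gene with more windows had more chances of a match. No share was taken over expressed genes alone. A match describes letters, and no match says only that these letters were not in this window.

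At the branch point of the pathway, Fdps joins isoprenoid units to farnesyl diphosphate, which feeds both sterols and protein prenylation. Its level had a lowest value, median and highest value of 120.1, 216 and 373 CPM in GFP-positive libraries, against 181, 411 and 737 CPM in GFP-negative libraries. The populations overlapped between 181 and 373 CPM, and every level above 373 CPM was GFP-negative. On the log2 scale the fold change was −0.77 (SE 0.22), and its edgeR p was 0.00117 before and 0.594 after adjustment. DESeq2 put it at −0.84 (SE 0.22) with an adjusted p of 0.0340, the smallest over all alternatives, in which the adjusted p of Fdps ran from 0.0340 to 1.00. Fdps lies on chromosome 3 at 89093588 to 89101959 on the minus strand (mm10, ENSMUSG00000059743).

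Fdps was the lower one in GFP-positive libraries in 8 of 10 identifiers, with a mean difference of −0.68 ± 0.63 (SD, n = 10) on the log2(CPM + 10) scale and a range of −1.64 to 0.31. In library set 1 the GFP-positive libraries had 186, 189, 213, 235 and 358 CPM, against 254, 515 and 737 CPM as lowest, median and highest GFP-negative level. GFP-positive 2, at 358 CPM, was the one library of its group inside the GFP-negative range. The fold change was −1.14 (SE 0.30, edgeR adjusted p = 0.505) in set 1 and −0.40 (SE 0.28, edgeR adjusted p = 0.877) in set 2, with a difference between sets of 0.67 (SE 0.42, edgeR adjusted p = 0.799). Among libraries of at least 500000 counts, the 9 GFP-positive ones had 120.1, 223 and 373 CPM as lowest, median and highest level. The 4 GFP-negative ones, 1 of them in set 1 and 3 in set 2, had 299.8, 311, 329 and 391 CPM. The log2 fold change among these libraries was −0.42 (edgeR unadjusted p = 0.127). Across the 23 libraries Fdps had r = −0.364 with log10 depth (permutation p = 0.0889, adjusted p = 0.215) and rho = −0.263 (adjusted p = 0.462), with r = −0.434 in set 1 and −0.189 in set 2, and with r = 0.417 among GFP-positive (n = 11) and −0.452 among GFP-negative libraries (n = 12).

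Ggps1, which extends farnesyl to geranylgeranyl diphosphate, had medians of 44.1 CPM in GFP-positive and 36.0 CPM in GFP-negative libraries and a log2 fold change of 0.39 (SE 0.30). It did not pass the test, and it shares its locus with Arid4b, as 15 of the 29 genes share bases with another annotated gene.

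Squalene synthase, Fdft1, had 26.9, 101 and 198 CPM as lowest, median and highest level in GFP-positive libraries and 39.2, 112 and 201 CPM in GFP-negative ones, with a log2 fold change of 0.13 (SE 0.25). Sqle, the squalene epoxidase, had 0, 31.9 and 71.5 CPM in GFP-positive libraries and 9.80, 58.9 and 115 CPM in GFP-negative ones. Its log2 fold change was −0.58 (SE 0.32, edgeR unadjusted p = 0.0824), and its fold change was −0.52 in set 1 and −0.62 in set 2, none past the threshold. Lss, which had too few counts for the edgeR test, had medians of 7.31 CPM in GFP-positive and 19.6 CPM in GFP-negative libraries. Its highest level of 196 CPM, in GFP-negative 5, was 5 counts. DESeq2 did test Lss and gave a log2 fold change of −1.50 (SE 0.53, DESeq2 p = 0.00447 before and 0.244 after adjustment). In that test it was −2.21 in set 1 (adjusted p = 0.695) and −0.82 in set 2 (adjusted p = 0.798).

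The 8 genes that turn lanosterol into cholesterol did not pass the test and split evenly in direction. Msmo1, the methylsterol oxidase, was the highest of them in CPM, with 108, 222 and 375 CPM as lowest, median and highest level in GFP-positive libraries and 69.3, 174 and 369 CPM in GFP-negative ones. Cyp51, the lanosterol demethylase, had medians of 110.1 CPM in GFP-positive and 94.4 CPM in GFP-negative libraries. Ebp, a sterol isomerase, had medians of 92.2 CPM in GFP-positive and 84.5 CPM in GFP-negative libraries, and the desaturase Sc5d 79.0 and 82.5 CPM in the same order. Their log2 fold changes lay between −0.17 for Cyp51 and 0.23 for Msmo1, with SEs from 0.23 to 0.27.

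The remaining genes of this stretch were lower in level and less precise. Nsdhl, the dehydrogenase that helps remove methyl groups, had 20.99, 48.8 and 73.4 CPM as lowest, median and highest level in GFP-positive libraries, against 0, 33.7 and 121 CPM in GFP-negative ones, and was the higher one in GFP-positive libraries in 8 of 10 identifiers although its fold change was 0.07 (SE 0.33). The reductase Tm7sf2 had medians of 21.5 CPM in GFP-positive and 24.8 CPM in GFP-negative libraries (log2 fold change −0.54, SE 0.40), and Hsd17b7, the ketosteroid reductase, 21.3 and 23.3 CPM (−0.66, SE 0.38). Dhcr7, the reductase of the final step, had medians of 15.6 CPM in GFP-positive and 7.48 CPM in GFP-negative libraries (0.24, SE 0.42). Each of these 4 genes was at 0 in at least 1 GFP-negative library, where a count of 0 in GFP-negative 5, the shallowest library, allows up to 118 CPM (3 counts, counting error only).

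Msmo1 differed in how it stood within the library sets. In set 1 it had 133, 136, 242, 242 and 319 CPM in GFP-positive libraries, against 69.3, 253 and 369 CPM as lowest, median and highest GFP-negative level. In set 2 it had 108, 220.4 and 375 CPM as lowest, median and highest level in GFP-positive libraries, against 101, 158 and 181 CPM in GFP-negative ones. There 5 of 6 GFP-positive libraries were above all 6 GFP-negative libraries, and GFP-positive 9 was the exception at 108 CPM. The log2 fold change was −0.25 (SE 0.32) in set 1 and 0.68 (SE 0.29, edgeR unadjusted p = 0.0251, adjusted p = 0.562) in set 2, and the difference between the sets was 0.91 (SE 0.44, edgeR unadjusted p = 0.0440, adjusted p = 0.762).

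Among the regulators, Srebf2 encodes SREBP2, the factor that drives most cholesterol synthesis genes. Over all libraries it had 49.2, 105 and 322 CPM as lowest, median and highest level in GFP-positive libraries, against 43.1, 134 and 388 CPM in GFP-negative libraries, with a log2 fold change of −0.28 (SE 0.32, edgeR adjusted p = 0.997). That value joined opposite directions in the library sets. In set 1 the GFP-positive libraries had 61.1, 88.8, 88.9, 105 and 189 CPM, against 120.04, 156, 196, 219, 267 and 388 CPM in the GFP-negative libraries. GFP-positive 4, with 7 counts at 189 CPM, was the one GFP-positive library above the lowest GFP-negative one. In set 2 the GFP-positive libraries had 49.2, 95.7, 106, 110.0, 114 and 322 CPM, against 43.1, 48.7, 72.1, 77.4, 93.5 and 147 CPM in the GFP-negative libraries, and the 2 ranges overlapped.

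In set 1 the log2 fold change of Srebf2 was −1.23 (SE 0.35), with an edgeR p of 0.00194 before and 0.640 after adjustment. In set 2 it was 0.81 (SE 0.39), with an edgeR p of 0.0467 before and 0.714 after adjustment. The test of the difference itself gave 2.02 (SE 0.54) with an unadjusted p of 0.000596 and an adjusted p of 0.469 in edgeR. No gene of the 6621 passed the adjusted threshold for a difference between the sets, and 6.4% had an unadjusted p under 0.05. One library weighed on this value: without GFP-positive 10, which had the 322 CPM, the set 2 fold change was 0.30, the fold change over all libraries −0.61 and the difference between sets 1.51 (edgeR unadjusted p = 0.0039, adjusted p = 0.701). By identifier Srebf2 was lower in 4 and higher in 6 of 10, with differences of −2.01 to 1.18. Srebf2 lies on chromosome 15 at 82147181 to 82205379 on the plus strand (mm10, ENSMUSG00000022463) and holds the microRNA gene Mir33 within it.

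**Figure D4:**
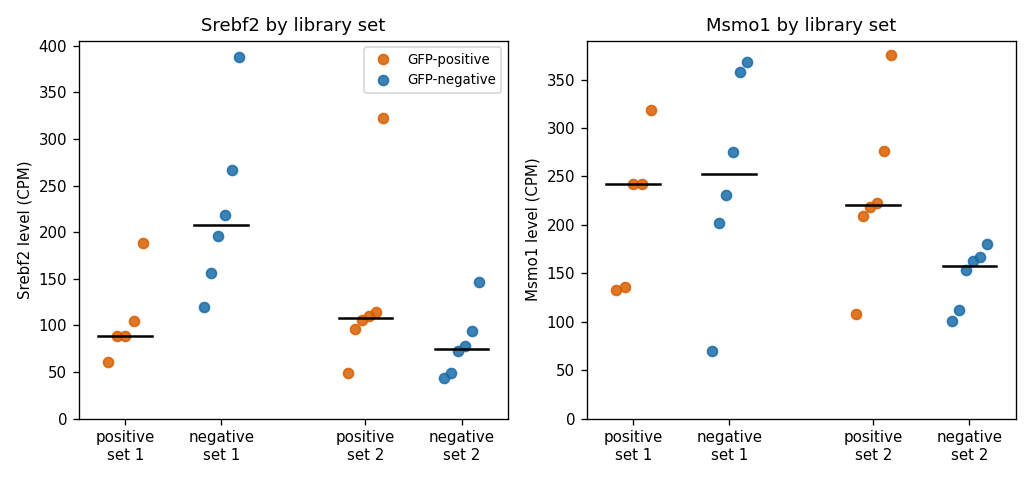
Level of Srebf2 and Msmo1 in CPM (vertical axes) in each library, by population and library set, with bars at the group medians. In set 1 the Srebf2 medians are 88.9 CPM in GFP-positive and 208 CPM in GFP-negative libraries, and in set 2 they are 108 CPM in GFP-positive and 74.7 CPM in GFP-negative libraries.

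Insig2, one of the proteins that retain Scap, had 0, 36.7 and 65.1 CPM as lowest, median and highest level in GFP-positive libraries, against 0, 20.4 and 38.2 CPM in GFP-negative libraries. All 5 libraries above 38.2 CPM were GFP-positive, and the ranges below that level overlapped. In the edgeR fit its fold change, 0.66 on the log2 scale (SE 0.36, p = 0.0738 before adjustment), was the most positive of the 28 and did not pass the test. The GFP-positive level was higher in 7, lower in 2 and equal in 1 of 10 identifiers, and the fold change was 0.95 (SE 0.56) in set 1 and 0.44 (SE 0.46) in set 2. Its level varied with depth, with r = 0.716 (permutation p = 0.00014, adjusted p = 0.00406) and rho = 0.544 (adjusted p = 0.122), and with r = 0.595 without the 2 libraries farthest from the median depth, 0.769 within set 1 and 0.588 within set 2. All GFP-negative zeros were in libraries of few counts, where 0 allows at least 22.8 CPM. In the libraries of at least 500000 counts the GFP-positive ones had 17.5, 36.7 and 65.1 CPM as lowest, median and highest level and the GFP-negative ones 21.3, 25.5, 27.6 and 38.2 CPM.

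Insig1, the sterol-sensitive partner of Insig2, had medians of 30.3 CPM in GFP-positive and 27.4 CPM in GFP-negative libraries (log2 fold change −0.08, SE 0.36). Srebf1, which encodes the SREBP1 forms that favour fatty acid genes, had medians of 22.5 CPM in GFP-positive and 16.9 CPM in GFP-negative libraries (−0.16, SE 0.40). Scap had 0, 14.1 and 57.4 CPM as lowest, median and highest level in GFP-positive libraries and 0, 29.7 and 115 CPM in GFP-negative ones (−0.73, SE 0.47). None passed the test. Summed over the 5 regulators, the level in set 1 was 188 to 206 CPM in the GFP-positive and 277 to 480 CPM in the GFP-negative libraries, and in set 2 it was 138 to 392 CPM in the GFP-positive and 138 to 304 CPM in the GFP-negative libraries. The sums of the 6 mevalonate genes were 260 to 299 CPM in GFP-positive and 355 to 548 CPM in GFP-negative libraries of set 1, and 163 to 422 CPM in GFP-positive and 189 to 575 CPM in GFP-negative libraries of set 2. Both sums were apart in set 1 and overlapped in set 2. The sums of the other 4 steps overlapped in set 1 as well: the prenyl step had 215 to 410 CPM in GFP-positive and 278 to 763 CPM in GFP-negative libraries, and the squalene step 26.9 to 221 CPM in GFP-positive and 156 to 354 CPM in GFP-negative ones. The step between lanosterol and cholesterol had 405 to 789 CPM in GFP-positive and 398 to 960 CPM in GFP-negative libraries, and transport and storage 323 to 1191 CPM in GFP-positive and 329 to 821 CPM in GFP-negative ones. These sums are a description with no test, and how often sums of other genes lie apart was not counted. In set 1, 4 of 5 GFP-positive and 1 of 6 GFP-negative libraries had at least 500000 counts. The part of depth in the sums that were apart was not tested.

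Of the transport genes, Abca1 exports cholesterol to lipid-poor apolipoproteins and is strongly used by macrophages. It had 3.498, 10.01 and 213 CPM as lowest, median and highest level in GFP-positive libraries, against 0, 16.2 and 163 CPM in GFP-negative libraries. The 213 CPM came from GFP-positive 3, the library with 32172 CPM of macrophage markers, and the next GFP-positive level was 35.4 CPM. Over all libraries the log2 fold change was 0.23 (SE 0.79, edgeR adjusted p = 0.997), and without GFP-positive 3 it was −1.30 (edgeR unadjusted p = 0.0214, adjusted p = 0.605). With DESeq2 it was −1.39 (DESeq2 p = 0.0183 before and 0.489 after adjustment). Among the 8 alternatives that did not leave out a single library it ran from −1.39 to 0.96, and its sign changed in 4. In set 2 the GFP-positive libraries had 3.498, 4.71, 4.79, 5.64, 19.0 and 21.5 CPM, against 0, 8.12, 15.1, 19.6, 32.6 and 163 CPM in the GFP-negative libraries. The set 2 fold change was −1.92 (SE 0.73, edgeR unadjusted p = 0.0143, adjusted p = 0.425), and the difference between the sets was −3.36 (SE 1.38, edgeR adjusted p = 0.713). The 163 CPM, 19 counts, came from GFP-negative 10, and without that library the set 2 fold change was −0.87.

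Abca1 moved with the macrophage markers. Over the 19 libraries of at least 100000 counts its log2(CPM + 10) had r = 0.820 with the log summed markers (permutation p = 1e-05, the smallest these permutations can give, adjusted p = 0.00011) and rho = 0.828 (adjusted p = 0.00033). Without the 2 libraries farthest from the median marker sum r was 0.695, and without GFP-positive 3 alone it was 0.738 (adjusted p = 0.0024). Within groups r was 0.994 among GFP-positive (n = 10) and 0.555 among GFP-negative libraries (n = 9), and within sets it was 0.948 in set 1 (n = 8) and 0.705 in set 2 (n = 11). When all 23 libraries entered, r was 0.614 (permutation adjusted p = 0.0195), while rho was 0.487 (adjusted p = 0.16) and did not pass. Without the 2 farthest of those 23 libraries r was 0.387. In set 2 all 9 tested macrophage markers had lower fold changes in GFP-positive libraries and 8 were called, with sums of 147 to 861 CPM in GFP-positive and 2412 to 6575 CPM in GFP-negative libraries. All 8 tested fibroblast markers were lower there too, 4 of them called. Lyz2 (−3.66, edgeR adjusted p = 0.0156), C1qa (−4.57, adjusted p = 6.41e-07) and Col1a1 (−3.90, adjusted p = 0.0118) were among the called markers. No macrophage or fibroblast marker was at 0 throughout a group. In set 1, which holds GFP-positive 3, all 8 tested macrophage markers had higher fold changes in GFP-positive libraries, with a median of 1.67 and 0 called. The part of these cells in the values of Abca1 was not tested.

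**Figure D5:**
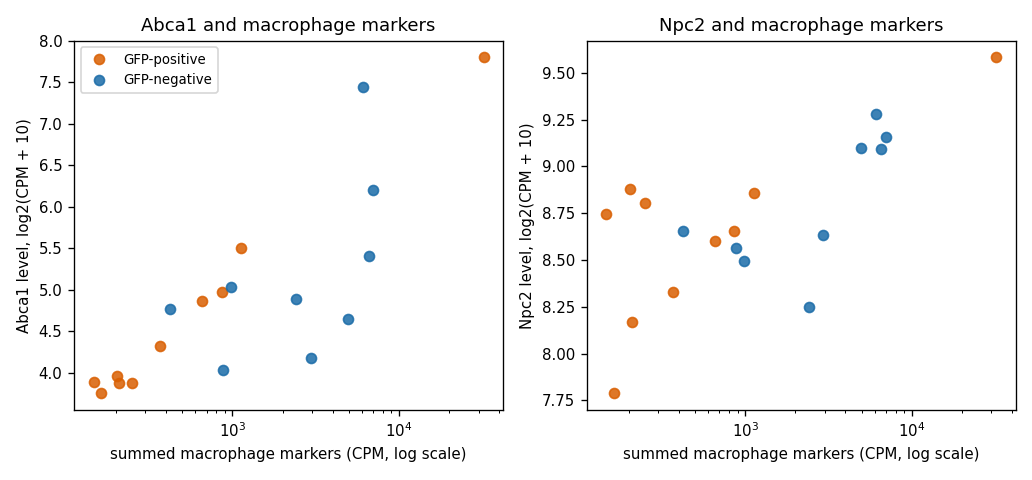
Level of Abca1 and Npc2 as log2(CPM + 10) (vertical axes) against the summed CPM of 12 macrophage markers (horizontal log axis) in the 19 libraries of at least 100000 counts. GFP-positive 3 lies alone at 32172 CPM of markers and has the highest level of both genes, and r is 0.820 for Abca1 and 0.7104 for Npc2.

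Npc2, the soluble lysosomal protein that hands cholesterol to Npc1, had 211, 394 and 757 CPM as lowest, median and highest level in GFP-positive libraries and 144, 390.1 and 611 CPM in GFP-negative ones. Centres and ranges nearly coincided, and the log2 fold change was −0.02 (SE 0.22) with a 95% interval of −0.45 to 0.42. Its highest level was again in GFP-positive 3. Npc2 had r = 0.7104 with the macrophage markers (adjusted p = 0.00456) and rho = 0.575 (adjusted p = 0.0428), and r = 0.555 without the 2 libraries farthest from the median. It was 0.735 among GFP-positive and 0.702 among GFP-negative libraries, 0.960 in set 1 and 0.498 in set 2, and 0.417 (adjusted p = 0.259) when all 23 libraries entered. Without GFP-positive 3 r was 0.608 (permutation adjusted p = 0.0267) and rho 0.501 (adjusted p = 0.101). Among the GFP-positive libraries r was then 0.365 (n = 9).

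Npc1, the membrane partner that moves cholesterol out of the lysosome, had medians of 22.6 CPM in GFP-positive and 24.2 CPM in GFP-negative libraries (log2 fold change −0.08, SE 0.43), with fold changes of 0.49 in set 1 and −0.72 in set 2. Its r with the macrophage markers was 0.497 (adjusted p = 0.0841). Soat1, which esterifies cholesterol for storage in droplets, had medians of 126 CPM in GFP-positive and 85.3 CPM in GFP-negative libraries (0.22, SE 0.26) and an r of 0.179 with those markers (adjusted p = 0.540). Stard4, a cytosolic sterol carrier, had medians of 26.8 CPM in GFP-positive and 31.9 CPM in GFP-negative libraries (−0.07, SE 0.33). Unlike in set 1, where 3 of 4 tested transport genes had higher fold changes, all 5 had lower ones in set 2, with a median of −0.12. None of these passed the test, and the difference between the sets passed it for none of the 5.

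Within the sets as a whole, 0 of 23 tested members were called in library set 1, where edgeR called 0% of 5256 genes, and 0 of 28 in library set 2, where it called 1.28% of 6952 genes. DESeq2 called 0.211% of genes in set 1 and 2.5% in set 2, and no member in either. At an unadjusted p under 0.05 edgeR had 3 members lower in set 1 (Acat2, Fdps and Srebf2) and none higher, against 2.99% of all genes lower and 2.42% higher. In set 2 it had 2 higher (Msmo1 and Srebf2) and 1 lower (Abca1), against 2.34% of all genes higher and 4.53% lower. The members' median was −0.31 in set 1 with 17 of 23 lower, where all genes had 0.05 with 45.9% lower, and −0.02 in set 2 with 16 of 28 lower, where all genes had 0.07 with 43.9% lower. All 5 tested mevalonate genes were lower in set 1 with a median of −0.54, and 4 of 6 in set 2.

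Other genes of the same biology gave 27 tested of 53 listed over all libraries, of which edgeR called none, 12 were higher and 15 lower, with a median of −0.03. Among SREBP-driven fatty acid genes the smallest p was that of the desaturase Scd2 (−0.56 on the log2 scale, SE 0.23, edgeR p = 0.0214 before and 0.951 after adjustment), and 5 of 6 tested genes of that list were lower. The sterol-binding protein Tmem97 had −0.40 (edgeR unadjusted p = 0.120), and −0.92 in set 1 (unadjusted p = 0.0155, adjusted p = 0.894). Stard3, an endosomal sterol carrier, had 0.54 (SE 0.25, edgeR adjusted p = 0.992), Pggt1b, a subunit of a protein prenyltransferase, 0.46 (unadjusted p = 0.129), and Rce1, the protease that trims prenylated proteins, 0.56 (unadjusted p = 0.131). The LXR receptor gene Nr1h2 had −0.38 (unadjusted p = 0.313), and the lipoprotein receptor Lrp1 −1.34 (SE 0.75, unadjusted p = 0.0870).

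In library set 2 edgeR called 1 of 29 tested pathway genes, against 1.28% of all 6952 genes. It was Apoe, the apolipoprotein that accepts exported cholesterol and is itself on the macrophage marker list. It had 19.8, 38.1 and 89.2 CPM as lowest, median and highest level in GFP-positive libraries, against 414, 640.4 and 1497 CPM in GFP-negative ones. Apoe was thus apart between the groups, as were 1.11% of the genes tested in that set. Its level fell in the GFP-positive libraries, with a log2 fold change of −4.12 (SE 0.34, edgeR adjusted p = 7.58e-08). It had 1.74 (SE 1.56, edgeR adjusted p = 0.942) in set 1 and 0.49 (SE 1.01, edgeR adjusted p = 0.997) over all libraries, and the difference between the sets was −5.90 (SE 1.62, edgeR adjusted p = 0.469), none of which passed the test. Lrp1 had −2.31 (edgeR adjusted p = 0.390) and Lipa, the lysosomal lipase that frees cholesterol from its esters, −1.24 (edgeR adjusted p = 0.639) in the same set.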

How the data were processed

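Poly(A) RNA was sequenced in bulk from sorted GFP-positive and GFP-negative cells. TRIzol and a PureLink kit served to purify RNA and a directional NEBNext Ultra II kit to make libraries, per the labels' protocols. The protocol speaks of organoids as the RNA source and the design text of tumours, and the letters HFD in the series title have no diet label, so diet entered no comparison. The deposited table holds expected counts (estimated reads per gene, already whole numbers) made with Salmon 1.3.0 on mm10, per the submitters' processing notes. For the annotation and the strand option, the choice is not given in the sources used, so reads of overlapping and antisense genes may not be separable.

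From these counts, edgeR 4.0.16 in R 4.3.3 was fitted across all genes (TMM scaling, filterByExpr by group, robust quasi-likelihood fit, Benjamini-Hochberg adjustment, threshold 0.05), over all libraries, within each library set and with an interaction of group and set. Each log2 fold change is the GFP-positive minus the GFP-negative level, and 0.05 was also the unadjusted threshold. CPM values are counts scaled to equal library totals, without TMM factors. Library sets are runs of library numbers and identifiers are the starts of library names. No label says what either stands for. Identifiers that 1 library name joins were taken as 1. Correlations used log2(CPM + 10) and 100000 permutations, two-sided. The relations with depth, the limit of 500000 counts and the value without GFP-positive 3 in correlations were added after seeing the data. Of the 54354 identifiers 51485 were in GENCODE M21, as were all 29 members, which gave coordinates and exon lengths.

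Members, gene lists and tests were chosen with earlier results of these data known. All 29 members are named. Of other genes the rule names the reporter gene, 4 cell type checks and, per list, the called genes or those with the smallest p. Simulated data served to test the fits. By a chi-square test, 0 of 121 pairs of libraries of a group agreed within sampling noise, so none was counted as a repeat, although libraries of 1 tumour can differ by more than that noise. GFP-positive 2 and 7 share 1 identifier. The names of GFP-negative 4 and 5 start differently, but the name of GFP-positive 4 joins them, so they were taken as 1 identifier. Each of these libraries entered as its own. Floors are 3 counts per library, and since reads here carry no molecular identifiers, floors cover counting error only. Alternatives were DESeq2 1.42.0, its size factors, no low-count filter, depth limits, blocks, the library set as covariate and leaving out each library. Python 3.11.15, scipy 1.17.1 and matplotlib 3.10.9 made the correlations and figures.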

Additional observations from a re-analysis of the deposited data

Results flagged for a closer look

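Within the library sets, 17 of 116 groups of 5 or 6 libraries (14.7%) held a library whose level lay far from the others of its group. How often chance would give this at such uneven depth was not tested. Of the 17, 4 were in libraries of fewer than 100000 counts. In the mevalonate and prenyl steps, Acat2 was at 144 CPM in GFP-negative 12 and at 32.5 to 49.0 CPM in the other GFP-negative libraries of set 2. Hmgcs1 was at 196 CPM in GFP-positive 8 (others of set 2 between 55.3 and 105 CPM), Fdps at 358 CPM in GFP-positive 2, and Ggps1 at 25.7 CPM in GFP-positive 9, below its group. Among sterol genes, Lss was at 196 CPM in GFP-negative 5 (5 counts), Tm7sf2 at 86.1 CPM in GFP-negative 10, Hsd17b7 at 127 CPM in GFP-negative 11, and Ebp at 0 CPM in GFP-negative 4, where a count of 0 allows up to 52.0 CPM.

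Among regulators, Srebf1 was at 68.6 CPM in GFP-negative 11, Srebf2 at 322 CPM in GFP-positive 10 (others of set 2 between 49.2 and 114 CPM), Scap at 57.4 CPM in GFP-positive 7, and Insig1 at 118 CPM in GFP-negative 5 (3 counts). Among transport genes, Npc1 was at 108 CPM in GFP-negative 11 and Npc2 at 211 CPM in GFP-positive 9, below its group. Abca1 was at 213 CPM in GFP-positive 3, at 63.6 CPM in GFP-negative 1 and at 163 CPM in GFP-negative 10 (19 counts). GFP-negative 11 thus stood high for Hsd17b7, Srebf1 and Npc1, and GFP-positive 9 stood low for Ggps1 and Npc2.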

How the results depend on the processing

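No alternative other than DESeq2 over all libraries called a cholesterol gene, where it called 1, Fdps. The number of all genes called moved more. It was 1 over all libraries in edgeR and 61 with DESeq2, and 0 in libraries of at least 500000 counts. In set 1 it was 0 in edgeR and 11 with DESeq2, in set 2 it was 89 in edgeR, 288 with DESeq2 and 375 without the low-count filter, and for the difference between sets it was 0, 11 with DESeq2 and 1 without that filter. Leaving out 1 library gave 0 to 16 called genes over all libraries (16 without GFP-positive 3, 3 without GFP-positive 1, and 0 without any 1 of GFP-negative 1, 2 and 5 to 12), 0 to 6 in set 1 (6 without GFP-negative 6, 1 without GFP-negative 1 and 1 without GFP-positive 3), 65 to 118 in set 2 and 0 to 6 for the difference between sets (6 without GFP-negative 6). The median of the members ran from −0.20 to −0.01 in those fits. The log2 fold change of C1qa over all libraries, 0.27, turned to −2.80 with DESeq2, −3.25 with a replicate block by identifier, −2.91 with a block by title number and −1.23 with the library set as covariate, and ran from −3.19 (without GFP-positive 3) to 0.71 when 1 library was left out. That of Apoe, 0.49, turned to −2.88, −3.08, −2.87 and −1.16 in the same order, and ran from −3.11 (without GFP-positive 3) to 0.88. The cause was not tested. Without the low-count filter the median of all genes was 0.19 over all libraries, 0.31 in set 1 and 0.22 in set 2.

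Neither identifiers nor title numbers met the rule for pairing, that every pair correlate above 0.1: deviations of same-identifier libraries correlated at −0.285 to 0.4202, over 0.1 in 5 of 10, and of same-numbered ones at −0.168 to 0.4202, over 0.1 in 2 of 11. A replicate block by identifier called 2 genes over all libraries and 140 in set 2, a block by title number 0 over all libraries and 18 in set 1, and neither block called a member. Uncalled member values changed sign in 27 of 224 values over all libraries (15 genes) under the other alternatives and in 35 of 641 when a library was left out (9 genes).

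Depth limits what can be read: in 4 libraries a count of 0 allows a level of 43.1 CPM or more.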
